A study of Mus musculus with 12 samples.

Results

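The suppressors of cytokine signalling (SOCS) Socs1, Socs2, Socs3, Socs6 and Cish, and the signal transducers Stat3, Stat4, Stat5a, Stat5b and Stat6, were followed by gene symbol through all 12 libraries of the series. All 10 symbols were found among the 40847 rows of the count table. The RNA is that of FLAMs, macrophages of mouse fetal liver that are kept in culture as a model of alveolar macrophages. All groups received recombinant mouse GM-CSF at 30 ng/ml. The 4 groups of 3 libraries were untreated cells, cells kept in recombinant human TGFβ1 at 20 ng/ml (TGFβ), cells given the TLR2 ligand Pam3CSK4 at 25 ng/ml for 18 h (Pam3), and cells given both (Pam3+TGFβ). Genotype, mouse strain, the age of the fetuses and the number of donors are not given in the sources used here, nor is the length of the TGFβ culture. Nothing there says that the 3 libraries of a group came from separate isolations, so the p-values measure the spread between these libraries, which may be technical.

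Receptors for GM-CSF, IL-6, IL-10, IL-4 and interferons have no kinase of their own and use Janus kinases (JAKs), which phosphorylate STAT proteins that then enter the nucleus and switch on target genes. SOCS genes are among those targets, and their products close the loop: an SH2 domain binds the activated receptor or JAK, and a SOCS box recruits a ubiquitin ligase. Cish (encoding CIS) and Socs2 are classic STAT5 targets and serve as readouts of GM-CSF signalling. Socs3 is a classic STAT3 target that blocks IL-6 type receptors, and Socs1 restrains interferon receptors. In alveolar macrophages GM-CSF and TGFβ are both needed for normal development.

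Library totals ran from 34036650 to 44374115 counts. By a chi-square comparison of replicate counts, untreated replicate 3, TGFβ replicate 2 and Pam3 replicate 1 stood apart from their partners (133 to 220 per degree of freedom in 6 pairs, against 9.99 to 28 in the other 6 pairs), so the counts of calls are also given without these 3 libraries. All 7 general macrophage markers were present, with a summed level, in CPM (counts scaled to a common library size), of 32351 to 36528 in the untreated libraries and 35363 to 36500 in the Pam3 libraries. That sum was 16991 to 17946 CPM in the TGFβ libraries and 26058 to 26705 CPM in those with both. Most of it was Lyz2, with means of 29824 CPM untreated and 15249 CPM with TGFβ. The mean of Itgam went from 1088 to 38.8 CPM and that of Mertk from 223 to 222 CPM. Ptprc, Adgre1, Csf1r and Cd68 also had lower means with TGFβ than untreated. The 8 alveolar markers summed to 5732 to 7688 CPM over the 12 libraries. With TGFβ and no Pam3, 5 of the 8 rose (Siglecf, from a mean of 32.1 to 300.4 CPM, Ear1, Chil3, Pparg and Car4) and 3 fell (Fabp4, from 31.1 to 0.132 CPM, Marco and Itgax). The 7 neutrophil markers (Mpo at 0 in every library) summed to 13.5 to 17.1 CPM in libraries without TGFβ and 3.75 to 6.99 CPM in those with it. That sum was mostly S100a8, with means of 13.8 CPM untreated and 3.07 CPM with TGFβ, while S100a9 (0.253 and 0.993 CPM), Ngp (0.346 and 0.623 CPM) and Camp (0.00802 and 0.174 CPM) were higher with TGFβ. The other marker lists summed to at most 0.419 CPM for T, B and NK cells (4 of 7 genes at 0 in all 12 libraries), 1.203 CPM for mast cells, 4.13 CPM for stroma, 5.10 CPM for erythroid cells, 5.62 CPM for dendritic cells and 10.1 CPM for hepatocytes. Most of the erythroid sum was Pf4 (mean 4.05 CPM with Pam3) and most of the dendritic sum Zbtb46 (mean 4.64 CPM untreated). The hepatocyte sum was mostly Afp (mean 9.27 CPM with Pam3+TGFβ). The part of these marker differences in the results was not tested. In bulk RNA, fewer cells of a type and less RNA per cell cannot be told apart.

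The largest differences among these genes belonged to Socs1 and Socs3, which TGFβ lowered in resting cells and Pam3 raised. The GM-CSF feedback genes Cish and Socs2 moved in opposite directions with TGFβ, and Socs6 fell. Stat3 rose with TGFβ, while Stat6, Stat5b and Stat5a fell by smaller amounts. Stat4, which carries IL-12 signals, had 2, 0 and 3 counts in the untreated libraries and 0 counts in each of the 9 others, where a count of 0 allows up to 3 counts by sampling error alone. The span, introns included, of Gm28177, a long non-coding RNA on the same strand, covers 6793 of the 8062 bases of the canonical Stat4 transcript. That of Gm31812, a long non-coding RNA on the opposite strand, covers 5355 of them. Gm28177 was not analysed here. How many of these bases fall in exons of those RNAs was not determined. Reads from bases that do may have been left uncounted as ambiguous, which was not tested, so the level of Stat4 is uncertain. It did not pass the count filter and was not tested. The other 9 genes had at least 64 counts in every library, so their passing did not hinge on any one group.

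**Figure D1:**
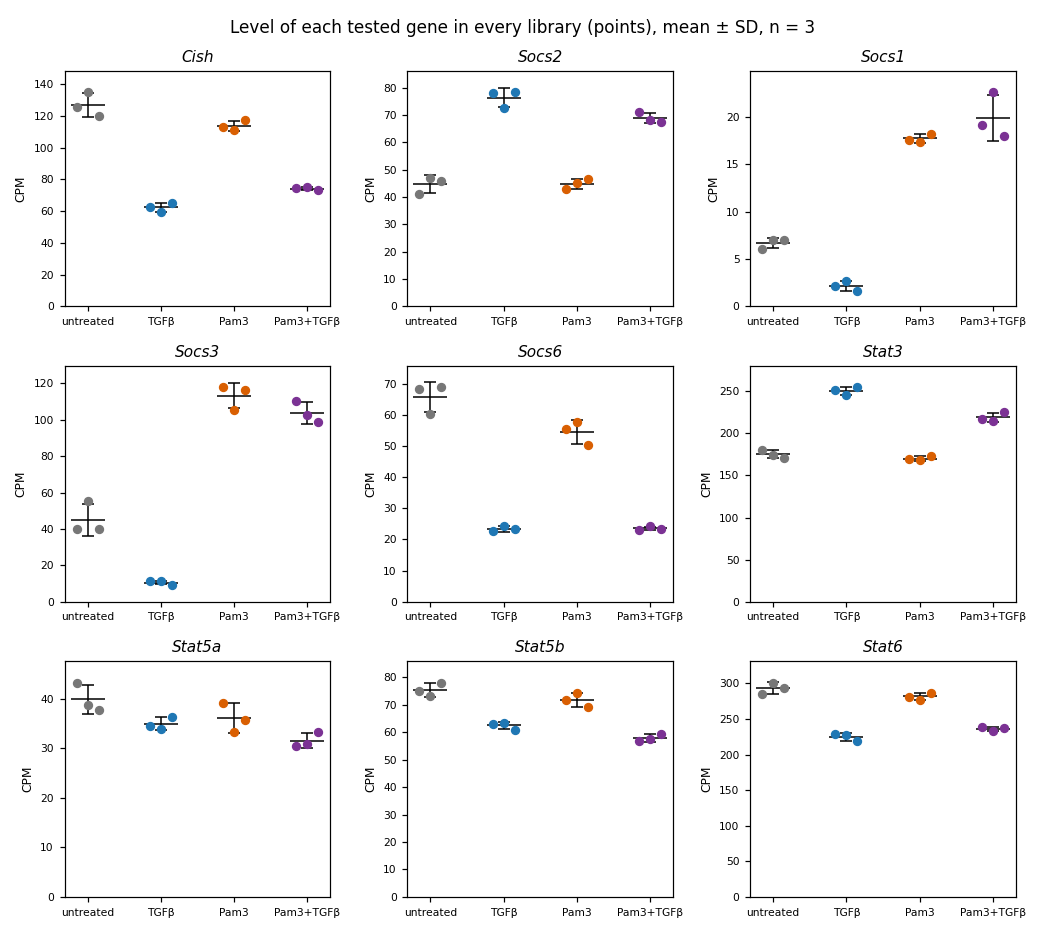
Level of 9 genes in CPM (vertical axes from 0) in untreated, TGFβ, Pam3 and Pam3+TGFβ cells. Points are libraries, bars the mean ± SD (n = 3); Socs1 and Socs3 are lowest in the 3 TGFβ libraries, and Cish and Socs2 move in opposite directions with TGFβ.

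Of the 9 tested genes, TGFβ without Pam3 changed 9, 2 higher and 7 lower, where 51.0% of all 14749 tested genes were called (22.9% higher, 28.1% lower). TGFβ in the presence of Pam3 changed 7 of the 9, 2 higher and 5 lower, against a background of 45.3% (21.5% higher, 23.8% lower). Pam3 without TGFβ changed 4, 2 higher and 2 lower, against 18.3% (9.62% higher, 8.66% lower). With TGFβ, Pam3 changed 4, 3 higher and 1 lower, against 38.5% (20.4% higher, 18.1% lower), a count close to the background share. The interaction subtracts the Pam3 response of cells without TGFβ from that of cells kept in it, and was called for 4 genes, all with a higher response in the presence of TGFβ, against 15.9% of all genes (10.3% higher, 5.67% lower). Without the 3 libraries that stood apart these counts were 8, 6, 2, 5 and 3 in the same order. The Pam3 response without TGFβ then lost Cish and Socs6 and kept Socs1 and Socs3. The shares above are those of the fit with all 12 libraries, so they are no background for the counts without the 3 libraries. With upper-quartile scaling the count for Pam3 with TGFβ was 7 in place of 4. The added genes, Socs2, Stat5a and Stat5b, were called lower. Over all tested genes that scaling gave 2477 calls higher and 3489 lower, against 3008 and 2670 with TMM scaling. A call means an adjusted p (Benjamini-Hochberg, all tested genes) below 0.05 in edgeR's quasi-likelihood test.

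**Figure D2:**
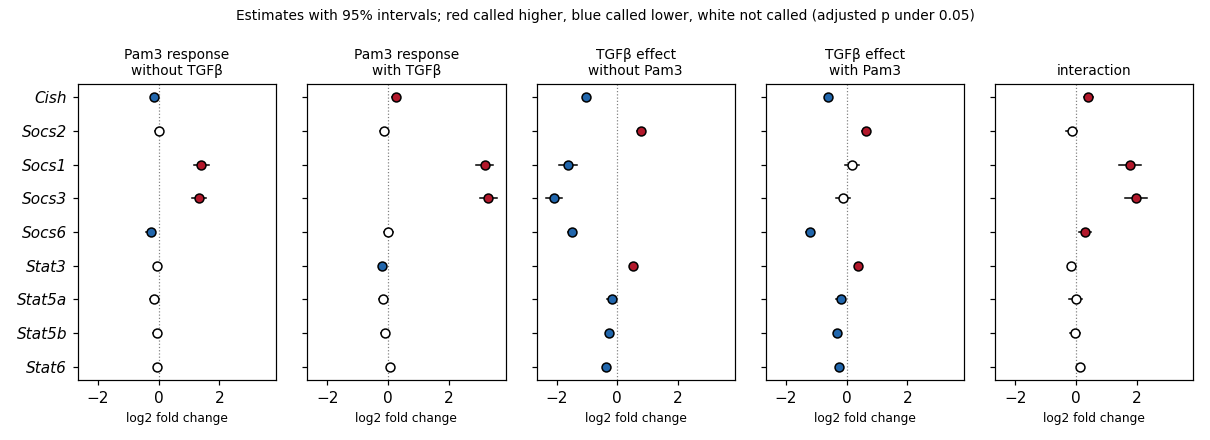
Log2 fold changes (horizontal axes) of the 9 tested genes in 5 comparisons, with 95% intervals. Filled points were called higher (red) or lower (blue) and white points were not called; the interaction intervals of Socs1 (1.41 to 2.15) and Socs3 (1.62 to 2.33) lie far from 0.

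Cish (chromosome 9, 107173225 to 107179983, plus strand of GRCm39, 3 exons in its canonical transcript) encodes CIS, which binds phosphorylated sites on the GM-CSF and IL-3 receptor chain. Its level was 125, 135 and 120.2 CPM in the untreated libraries and 62.5, 59.7 and 65.1 CPM in the TGFβ libraries. With Pam3 it was 113, 111 and 117 CPM, and with Pam3+TGFβ 74.5, 75.0 and 73.1 CPM. The libraries with TGFβ were all below those without it, and the Pam3+TGFβ libraries all lay above the TGFβ libraries. Without Pam3, the log2 fold change of Cish with TGFβ was -1.02 (SE 0.0542, adjusted p 2.24e-14) and with Pam3 it was -0.62 (SE 0.0539, adjusted p 4.87e-10).

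Pam3 acted on Cish in opposite directions in the 2 conditions. The change was -0.16 without TGFβ (SE 0.0533, adjusted p 0.0417) and 0.25 with it (SE 0.0542, adjusted p 0.000557). The interaction was 0.41 (95% interval 0.25 to 0.56, adjusted p 0.000331), and it ran from 0.36 to 0.45 when each library was left out in turn. The small decrease without TGFβ kept its call in 11 of 21 alternative settings, and its adjusted p was 0.173 without untreated replicate 2. The untreated and Pam3 libraries did not overlap, with the lowest untreated library at 120.2 CPM and the highest Pam3 library at 117 CPM.

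Socs2 (chromosome 10, 95219523 to 95253929, minus strand, 4 exons) is best known as the brake on growth hormone signalling and is also induced through STAT5. It stood at 41.2, 47.1 and 46.1 CPM in untreated cells and at 78.3, 72.5 and 78.4 CPM with TGFβ. The Pam3 libraries held 42.9, 45.1 and 46.5 CPM, and the Pam3+TGFβ libraries 71.1, 68.4 and 67.6 CPM. The 6 libraries with TGFβ were all above the 6 without it, and the untreated and Pam3 ranges overlapped. On the log2 scale, TGFβ raised Socs2 by 0.77 without Pam3 (SE 0.0618, adjusted p 8e-11) and by 0.62 with Pam3 (SE 0.0619, adjusted p 5.29e-09).

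The Pam3 response of Socs2 was 0.0012 without TGFβ (95% interval -0.13 to 0.13, adjusted p 0.995) and -0.15 with TGFβ (95% interval -0.27 to -0.02, adjusted p 0.061). The second value was called in 8 of 21 alternative settings, among them DESeq2 (adjusted p 0.0476). The interaction was -0.15 (95% interval -0.33 to 0.03, adjusted p 0.302).

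The ratio of Cish to Socs2 was lower in cells with TGFβ. Per kilobase of canonical transcript, the ratio of Cish to Socs2 within a library was 1.98 ± 0.151 in untreated cells and 1.77 ± 0.0612 with Pam3 (SD, n = 3). With TGFβ it was 0.569 ± 0.0115, and with both 0.749 ± 0.0176 (SD, n = 3). The 4 groups span 1.82 to 2.12, 1.72 to 1.84, 0.556 to 0.578 and 0.73 to 0.764, so the ranges with and without TGFβ are far apart. Which gene is the higher depends on the length used, since all annotated exons of Socs2 merge to 15258 bases against 2540 in its canonical transcript. Per kilobase of merged exons, a length tried after the data were seen, the ratio was 6.74 in untreated, 1.94 in TGFβ, 6.03 in Pam3 and 2.56 in Pam3+TGFβ cells, with Cish above Socs2 in every group. A change of length multiplies all 4 values alike.

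Socs1 (chromosome 16, 10600104 to 10603875, minus strand, 2 exons) encodes an inhibitor that binds JAKs directly and limits responses to interferons. Its untreated libraries held 6.08, 7.03 and 6.99 CPM and its TGFβ libraries 2.16, 2.69 and 1.68 CPM. With Pam3 it reached 17.6, 17.4 and 18.2 CPM, and with Pam3+TGFβ 19.1, 22.6 and 18.0 CPM. The TGFβ libraries were the lowest of all, and the Pam3 and Pam3+TGFβ ranges overlapped. Without Pam3, TGFβ lowered Socs1 3.07-fold (log2 fold change -1.62, SE 0.142, adjusted p 4.71e-10).

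On the log2 scale, Pam3 raised Socs1 by 1.40 without TGFβ (SE 0.118, adjusted p 1.76e-09) and by 3.19 with TGFβ (SE 0.135, adjusted p 4.27e-16), that is 2.65-fold and 9.11-fold. The interaction was 1.78 (SE 0.18, adjusted p 4.49e-08). In the presence of Pam3 the TGFβ effect was 0.17 (95% interval -0.06 to 0.39, adjusted p 0.234), so the level reached with Pam3 was not called different between cells with and without TGFβ.

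Socs3 (chromosome 11, 117856905 to 117860898, minus strand, 2 exons) encodes the inhibitor of the shared receptor chain of IL-6, LIF and oncostatin M. It held 39.7, 55.2 and 40.0 CPM in untreated cells and 11.1, 11.1 and 9.30 CPM with TGFβ. The Pam3 libraries stood at 118, 105 and 116 CPM and the Pam3+TGFβ libraries at 110.4, 103 and 98.6 CPM. Untreated replicate 2 lay above its partners, yet every untreated library was above every TGFβ library and below every library with Pam3. Socs3 had the largest decrease with TGFβ among the 9 genes, -2.10 without Pam3 (SE 0.124, adjusted p 4.34e-09).

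The log2 Pam3 response of Socs3 was 1.33 without TGFβ (SE 0.113, adjusted p 1.37e-06) and 3.30 with it (SE 0.126, adjusted p 5.09e-11), that is 2.51-fold and 9.87-fold. The interaction of 1.97 (SE 0.165, adjusted p 1.21e-06) was the largest of the 9. With Pam3 present the TGFβ effect was -0.12 (95% interval -0.36 to 0.11, adjusted p 0.391). In a fit of the 6 libraries with Pam3 alone that difference was -0.13, with an adjusted p of 0.0458.

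Socs1 and Socs3 had a like course over the 4 groups, so the 250 bases before their RefSeq start sites are shown. Both lie on the minus strand of GRCm38.p6, the build of the RefSeq promoter table, at chr16:10785537-10785786 for Socs1 and chr11:117969367-117969616 for Socs3. Each is written 5′ to 3′ and ends at the base before the start. Capitals mark matches, searched on both strands, to 2 copies of GAAA with 2 bases between them, a core of sites for interferon regulatory factors, and to TTC and GAA with 3 bases between them, the core of STAT sites.
Socs1: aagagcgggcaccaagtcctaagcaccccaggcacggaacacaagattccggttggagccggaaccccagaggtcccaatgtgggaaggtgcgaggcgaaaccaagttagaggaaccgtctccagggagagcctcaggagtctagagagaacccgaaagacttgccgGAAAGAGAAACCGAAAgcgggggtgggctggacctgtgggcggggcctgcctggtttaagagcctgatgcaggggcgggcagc
Socs3: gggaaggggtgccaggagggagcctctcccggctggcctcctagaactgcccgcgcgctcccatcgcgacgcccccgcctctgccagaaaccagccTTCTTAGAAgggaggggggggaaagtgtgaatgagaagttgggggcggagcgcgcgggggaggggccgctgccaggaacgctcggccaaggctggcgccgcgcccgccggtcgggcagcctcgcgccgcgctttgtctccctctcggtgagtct
Socs1 held 2 overlapping matches to the paired GAAA, 83 to 74 and 77 to 68 bases before the start. At least 1 such match was found in 2.98% of 32851 RefSeq promoters of the same length and at least 2 in 0.18%. Socs3 held 1 match to the STAT core, 154 to 146 bases before the start, as did 7.02% of the promoters in at least 1 place. The same core with 4 bases between, which STAT6 prefers, was in 5.85% of promoters and in neither of these windows. Promoters were matched for 8 of the 10 genes, with 11 start sites. Apart from Socs1 and Socs3, the one match to any of the 3 patterns was a paired GAAA at the second start site of Stat4. Socs2 and Socs6 had no entry in the table. The matches describe letters in the sequence and say nothing of binding in these cells.

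Socs6 (chromosome 18, 88683348 to 88945635, minus strand, 3 exons) encodes a family member that acts on receptor tyrosine kinases. The untreated libraries held 68.2, 60.3 and 68.8 CPM and the TGFβ libraries 22.6, 24.2 and 23.2 CPM. After Pam3 it stood at 55.4, 57.7 and 50.4 CPM without TGFβ and at 23.0, 24.2 and 23.4 CPM with it. The 6 libraries with TGFβ lay between 22.6 and 24.2 CPM, apart from all 6 without it. TGFβ lowered Socs6, with a log2 fold change of -1.49 without Pam3 (SE 0.0687, adjusted p 1.28e-15) and -1.21 with Pam3 (SE 0.0687, adjusted p 1.09e-13).

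A Pam3 effect on Socs6 was called without TGFβ (-0.27, SE 0.0661, adjusted p 0.0044), and the untreated and Pam3 ranges did not overlap. With TGFβ the value was 0.01 (95% interval -0.13 to 0.15, adjusted p 0.925). The interaction of 0.28 (SE 0.0961) was at the edge of the threshold, with an adjusted p of 0.0473, and kept its call in 5 of 20 alternative settings. Among those that lost it were the replicate block (adjusted p 0.0557) and the fit without untreated replicate 1 (adjusted p 0.161).

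Stat3 (chromosome 11, 100775924 to 100830450, minus strand, 24 exons) carries signals of IL-6 and IL-10 family cytokines. It held 180.2, 174 and 171 CPM in untreated cells and 251, 245 and 255 CPM in TGFβ cells. The Pam3 libraries stood at 169, 168 and 173 CPM and the Pam3+TGFβ libraries at 217, 215 and 225 CPM. All 6 libraries with TGFβ exceeded all 6 without it, and the Pam3+TGFβ libraries lay below the TGFβ libraries. In log2 units TGFβ raised Stat3 by 0.51 without Pam3 (SE 0.0408, adjusted p 6.25e-11) and by 0.37 with Pam3 (SE 0.0409, adjusted p 4.08e-08). Pam3 lowered it in cells with TGFβ (-0.19, SE 0.0407, adjusted p 0.000408), and the value without TGFβ was -0.04 (95% interval -0.13 to 0.04, adjusted p 0.538). The interaction was -0.15 (95% interval -0.27 to -0.03, adjusted p 0.0832), and it was called in 3 of 20 alternative settings.

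Stat3 and its feedback gene Socs3 moved in opposite directions with TGFβ at rest. Per kilobase, the ratio of Socs3 to Stat3 was 0.441 ± 0.0898 at rest and 0.0722 ± 0.00832 at rest in TGFβ (SD, n = 3). It was 1.14 ± 0.0604 after Pam3 alone and 0.814 ± 0.0605 in Pam3+TGFβ cells (SD, n = 3). The 4 ranges did not overlap. Per kilobase of merged exons the ratios were 0.729 and 0.119 at rest without and with TGFβ, and 1.89 and 1.35 after Pam3, so whether Socs3 or Stat3 was the higher in Pam3+TGFβ cells depends on the length.

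Stat6 (chromosome 10, 127477821 to 127496862, plus strand, 22 exons) is the factor of IL-4 and IL-13 signalling. Its libraries held 285, 301 and 294 CPM when untreated and 228, 227 and 219 CPM in TGFβ. After Pam3 they held 281, 277 and 287 CPM, and in Pam3+TGFβ cells 239, 233 and 237 CPM. The libraries with TGFβ were all lower than those without, while the untreated and Pam3 libraries overlapped. TGFβ lowered Stat6, with a log2 fold change of -0.38 without Pam3 (SE 0.0384, adjusted p 4.85e-09) and -0.25 with Pam3 (SE 0.0384, adjusted p 5.21e-06). The Pam3 responses were -0.06 (95% interval -0.14 to 0.02, adjusted p 0.34) and 0.07 (95% interval -0.01 to 0.15, adjusted p 0.142), and the interaction was 0.13 (95% interval 0.02 to 0.24, adjusted p 0.111). The last 77 bases of Stat6 lie over Nab2 on the opposite strand, and Nab2 also fell with TGFβ (-0.41 without Pam3, adjusted p 1.02e-06). The strand setting of the counting is not stated, so reads from those bases cannot be told apart. The same may hold for annotated antisense RNAs whose spans, introns included, cover exons of Cish, Socs1, Socs2, Socs3, Stat3, Stat4 and Stat5a. Most of these RNAs were not analysed here.

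Stat5a and Stat5b, the factors of GM-CSF, IL-3 and growth hormone signalling, are neighbours on chromosome 11 (100750177 to 100776065, plus strand, and 100671556 to 100741589, minus strand) and close paralogs. Reads that fit both could have been split or dropped in counting, so their separate values are uncertain. Stat5b ran from 73.1 to 78.1 CPM in untreated cells, 61.0 to 63.3 CPM in TGFβ cells, 69.4 to 74.5 CPM in Pam3 cells and 56.8 to 59.5 CPM in Pam3+TGFβ cells. Libraries with TGFβ were again all below those without. TGFβ lowered Stat5b, with a log2 fold change of -0.27 without Pam3 (SE 0.0541, adjusted p 0.000151) and -0.31 with Pam3 (SE 0.0543, adjusted p 3.58e-05).

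Stat5a had means of 39.9 ± 2.94 CPM in untreated cells, 34.9 ± 1.26 CPM in TGFβ cells, 36.0 ± 3.01 CPM in Pam3 cells and 31.5 ± 1.52 CPM in Pam3+TGFβ cells (SD, n = 3). The Pam3 range, 33.2 to 39.2 CPM, met that of Pam3+TGFβ, while every TGFβ library lay below every untreated one. Its calls were marginal: the TGFβ effect was -0.19 without Pam3 (adjusted p 0.0306), called in 10 of 21 alternative settings, and -0.19 with Pam3 (adjusted p 0.0338), called in 14 of 21. Without untreated replicate 1 the first was -0.11 (adjusted p 0.279), and without Pam3 replicate 1 the second was -0.12 (adjusted p 0.247). The Pam3 responses of both genes, from -0.15 to -0.07, were not called with TMM scaling, but those with TGFβ were called with upper-quartile scaling (Stat5a -0.21, adjusted p 0.0217, Stat5b -0.17, adjusted p 0.0141). The last 142 bases of Stat5a lie within the 3′ end of Stat3 on the opposite strand.

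Set against each other per kilobase of canonical transcript, Stat6 was the most abundant of the 10 genes in every group (58.6 to 76.4 CPM per kb as group means), and Stat4, whose counts are uncertain, was listed lowest. In untreated cells Stat3 (38.4 ± 0.997 CPM per kb) and Cish (34.8 ± 2.05) followed, then Socs2, Socs3 and Stat5b between 17.6 and 14.8 (SD, n = 3). Neighbours whose libraries overlapped in that order were Socs2 with Socs3, Socs3 with Stat5b, and Socs6 with Stat5a. With TGFβ, Socs3 dropped to the seventh place at 3.95 ± 0.397 CPM per kb, overlapping Socs6 at 3.83 ± 0.138 (SD, n = 3). With Pam3 it took the second place at 42.5 ± 2.57, above Stat3 at 37.2 ± 0.603, and with Pam3+TGFβ the third place at 39.0 ± 2.25 (SD, n = 3). Per kilobase of merged exons Stat6 was again the highest in all 4 groups, and Socs3 was again seventh with TGFβ and second with Pam3. Other places moved: Socs2 went from the fourth to the eighth place in untreated cells, Cish stood above Stat3 there, and Socs3 was second in Pam3+TGFβ cells. Bowtie2 does not split reads over introns, and the STAT genes have 19 to 24 exons against 2 to 4 for the SOCS genes. The effect of this on the order between the families was not tested.

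**Figure D3:**
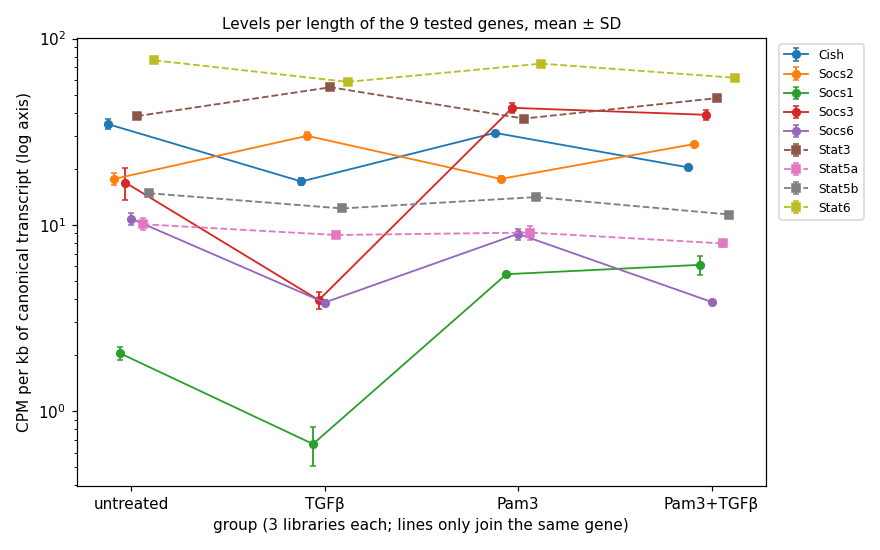
Mean CPM per kb of canonical transcript (log axis) of 9 genes in the 4 groups, with SD as bars (n = 3). Stat6 stays on top in all groups, and Socs3 moves from 3.95 with TGFβ to 42.5 with Pam3.

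The genes nearest in pattern were found as those with the smallest root mean square difference in log2 CPM over the 12 libraries, each gene centred on its mean, among 12783 candidates. For Cish the nearest were Glipr2 (0.0618) and Mpp1 (0.0723), where Cish itself had an SD of 0.444 on that scale. For Socs2 (SD 0.373) they were Retreg1 (0.052), Lpcat3 (0.0617) and Sephs2 (0.0624). For Socs1 (SD 1.35) they were Ms4a6c (0.155), Tmc3 (0.194) and Nfkbiz (0.205), and for Socs3 (SD 1.44) Ms4a6c (0.156), Sp100 (0.174) and Tmc3 (0.209). Ms4a6c stood at 8.77 ± 0.992, 2.47 ± 0.36, 21.1 ± 1.65 and 20.8 ± 0.472 CPM in untreated, TGFβ, Pam3 and Pam3+TGFβ cells (SD, n = 3).

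The other members of both families differed among themselves. Stat2, which carries type I interferon signals, stood at 80.3, 94.9, 162 and 425 CPM as group means in the order above. Its interaction was 1.15 (adjusted p 3.67e-12). TGFβ raised it at rest, by 0.24 on the log2 scale, whereas Socs1 and Socs3 fell. Socs5 fell with TGFβ (-0.25 without Pam3 and -0.37 with it), while Socs4 and Socs7 had no call in the 5 comparisons with TMM scaling and all libraries, with values from -0.12 to 0.16. The TGFβ effect on Socs4 without Pam3 (0.16, adjusted p 0.0698) was called in 7 of 21 alternative settings.

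Among 21 listed cytokine genes that signal through these STATs, 9 passed the filter, and TGFβ without Pam3 changed 6, 2 higher and 4 lower (median -0.98, against -0.01 over all tested genes). Over all tested genes 51.0% were called in this comparison, 22.9% higher and 28.1% lower. Lif and Osm, ligands of the chain that SOCS3 blocks, were singled out after their values were seen. Lif rose from 5.08 to 67.8 CPM and Osm from 19.9 to 85.4 CPM as group means with TGFβ, log2 fold changes of 3.74 and 2.10. With Pam3 present the TGFβ effect was 3.37 for Lif and 2.19 for Osm. Csf1, the macrophage growth factor, fell with TGFβ from 17.4 to 1.54 CPM and had an interaction of 1.76 (adjusted p 4.19e-06), and Il6 had one of 5.06 (adjusted p 3.2e-07). Il6 rested on 5, 2 and 2 counts in the TGFβ libraries, against 28, 73 and 58 untreated, so that value is imprecise. Il12b had counts of 0, 7 and 0 in untreated, 0, 1 and 0 in TGFβ, 79, 55 and 67 in Pam3 and 56, 63 and 57 in Pam3+TGFβ libraries, and its interaction was not called (adjusted p 0.354). Csf2, which encodes GM-CSF itself, had 0 counts in all 12 libraries, and Il10 had 1 count in 1 Pam3 library and 0 in the others.

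Of 23 receptor genes, 22 were tested, and TGFβ without Pam3 changed 16, 2 higher and 14 lower (median -0.26), where 51.0% of all tested genes were called and 28.1% were lower. The interaction was positive for 7 called genes and negative for 3 (median 0.21, against 0.0045 over all tested genes, of which 10.3% and 5.67% were called). The subunits of the GM-CSF receptor, Csf2ra and Csf2rb, and the related IL-3 receptor chain Csf2rb2 were also chosen after their values were seen. Csf2ra had a TGFβ effect of -0.22 without Pam3, Csf2rb of -0.28 and Csf2rb2 of -0.20, all 3 called. Pam3 raised Csf2rb by 0.47 without TGFβ and 0.83 with it, and Csf2rb2 by 0.55 and 1.02. Csf2ra was not called for Pam3, with group means of 495 CPM untreated and 461 CPM with Pam3. In cells with TGFβ its means were 425 CPM without Pam3 and 433 CPM with it. The 2 rises in the list belonged to the IL-4 and IL-13 receptor chains Il4ra (174 to 292 CPM, 0.75) and Il13ra1 (67.9 to 135 CPM, 0.99). Il2rg, which pairs with Il4ra in one form of the IL-4 receptor, fell from 209 to 56.2 CPM (-1.89), and the LIF receptor Lifr from 6.4 to 0.534 CPM (-3.56). Il7r and Il12rb1 had the largest interactions of the list, 2.02 and 1.73, and neither was called (adjusted p 0.0729 and 0.189), though that of Il7r was in 3 of 19 alternative settings. The interaction of Lifr was -1.02 (adjusted p 0.209). Osmr, the oncostatin M receptor gene, did not pass the filter, with at most 4 counts in any library.

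All 4 JAK genes were tested. Without Pam3, where 28.1% of all tested genes were called lower, TGFβ lowered Jak1 (-0.71), Jak2 (-0.26) and Tyk2 (-0.23), and Jak3 had a value of 0.01 (adjusted p 0.908). Pam3 raised Jak2 by 0.29 without and 0.63 with TGFβ, with an interaction of 0.34 (adjusted p 0.00622). Tyk2 had an interaction of 0.25 (adjusted p 0.00864), called in 16 of 20 alternative settings. The interactions of Jak3 and Jak1, 0.24 and 0.12, were not called.

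Genes known as targets of STAT3, STAT5 and STAT6 were listed to set beside the STAT levels. Of 8 STAT3 targets, TGFβ without Pam3 lowered 5 and raised 1 (median -0.72), against 28.1% and 22.9% of all tested genes. In the interaction 6 had a higher Pam3 response with TGFβ (median 0.75), against 10.3% of all tested genes. Pim1, a survival kinase, held 191, 61.2, 214 and 146 CPM as group means in untreated, TGFβ, Pam3 and Pam3+TGFβ cells, with an interaction of 1.09 (adjusted p 8.72e-11). Junb held 134, 46.3, 141 and 112 CPM in that order, with an interaction of 1.21 (adjusted p 1.54e-09). For Bcl3, a nuclear partner of NF-κB, the means were 19.3, 11, 24.6 and 40.4 CPM and the interaction 1.53 (adjusted p 1.94e-09). Pam3 gave Junb a value of 0.07 without TGFβ, which was not called, and raised it by 1.28 with TGFβ.

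Of 8 STAT5 targets, TGFβ without Pam3 lowered 5 and raised 1 (median -0.54), where 51.0% of all tested genes were called. Ccnd1 at -0.85 and Bcl2l1 at -0.60 were among the lower ones, and Myc at 0.48 was the higher one. Ccnd2, without a call here, was called higher in 13 of 21 alternative settings, with values from 0.096 to 0.174. The interaction of these 8 targets had a median of -0.01, and 2 were called higher, where 10.3% of all tested genes were. They were Bcl6 (0.96, adjusted p 5.78e-05) and Ccnd2 (0.24, adjusted p 0.0324), the latter in 10 of 20 alternative settings. Of 13 STAT6 targets 11 were tested, and TGFβ without Pam3 raised 5 and lowered 6 (median -0.25), against 22.9% and 28.1% of all tested genes. Cdh1, Pparg, Chil3 and Tgm2 were among those that rose, from Cdh1 at a log2 fold change of 1.203 to Tgm2 at 0.43, and Clec10a, Ccl22, Ccl17, Mrc1, Klf4 and Egr2 fell, from Clec10a at -3.31 to Egr2 at -0.25. In the interaction 6 of the 11 were called, 3 higher and 3 lower (median -0.07), against 10.3% and 5.67% of all tested genes. The lower ones were Cdh1 (-0.39, adjusted p 7.26e-05), Mrc1 (-0.30, adjusted p 0.0129) and Egr2 (-0.26, adjusted p 0.0135), named after their values were seen. The 3 largest interactions by size were those of Ccl22 (1.52, adjusted p 0.000757), Ccl17 (0.63, adjusted p 7.64e-05) and Tgm2 (0.53, adjusted p 0.0229, called in 14 of 20 alternative settings). Many of these genes have other regulators as well, and STAT activity was not measured here.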

How the data were processed

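RNA from 12 libraries was compared. Per the labels' protocols, the authors made the libraries with a stranded mRNA kit. The submitters' processing notes name GRCm39, Bowtie2 2.4.1, featureCounts, Subread 2.0.0, DESeq2 1.36.0 and R 4.2.1. The annotation, the strand setting and the handling of reads that fit several places are not given in the sources used here. The deposited counts are whole reads per gene symbol. The authors also deposited a normalized signal, which is each count over 1 constant per library; it entered 1 alternative.

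Genes passing filterByExpr at a minimum count of 10 (14749) were scaled by TMM and tested in R 4.3.3 by edgeR 4.0.16 (robust quasi-likelihood), with 4 group means, all 12 libraries and no covariate. P-values were adjusted by Benjamini-Hochberg over all tested genes, which is the source of each adjusted p without another tool's name. Intervals are 95%. The SE is the log2 fold change divided by the square root of F. CPM uses TMM-scaled library sizes, and CPM per kb the length of the canonical transcript of GENCODE M39. Log2 CPM for the search of similar genes had a prior count of 2. Floors cover counting error only. The procedure was tested on simulated counts. The chi-square comparison of replicates used genes with at least 20 counts in sum.

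The 10 genes and the lists were chosen with earlier results of these data known. Named list genes are the 3 with the largest interaction per list, all JAK genes and all other SOCS and STAT genes. Genes named beyond that were chosen after their values were seen. Some genes that this rule names are not reported here.

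Alternatives were RLE size factors, upper-quartile scaling, no filter, a floor of 10 counts per library, DESeq2 1.42.0, limma-trend (limma 3.58.1) on the authors' values as log2 with a pseudocount of 1, a replicate block, fits of the 2 groups compared and leaving out each library. Leaving out the 3 libraries that stood apart and the length of merged exons were added after the data were seen. The correlation of same-numbered deviations ran from -0.174 to 0.3 over 18 pairs, and 7 were over 0.1. Libraries of different numbers were not compared, so these values cannot tell whether replicate numbers pair the libraries.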

Additional observations from a re-analysis of the deposited data

Results flagged for a closer look

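The interaction was called for 4 of the 9 tested genes, against 15.9% of all tested genes. The interaction on the log2 scale was 1.97 for Socs3, 1.78 for Socs1, 0.41 for Cish and 0.28 for Socs6. Each was positive, and the value for Socs6 had an adjusted p of 0.0473 and was called in 5 of 20 alternative settings. The count was 3 with a replicate block and 3 without the 3 libraries that stood apart. The share of 15.9% is that of the fit with all 12 libraries and no block, so it is no background for those counts.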

How the results depend on the processing

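Over 21 alternative settings, 858 of 936 values of the tested genes kept their direction and their side of the threshold. Every called value that changed was a loss of the call with the same direction (44 values, of Cish and Socs6 with Pam3, Stat5a with TGFβ, and the Socs6 interaction), and 14 values gained a call, 8 of them that of Socs2 for Pam3 with TGFβ. The count of genes called for Pam3 with TGFβ was 7 with upper-quartile scaling in place of 4, since Socs2, Stat5a and Stat5b were then called lower. The count for Pam3 without TGFβ was 2 without the 3 libraries that stood apart, a setting that tests fewer samples. The share of all tested genes called in that setting is not given here. The causes of the other changes were not tested. Upper-quartile scaling also moved the split of calls over all genes, to 2477 higher and 3489 lower for Pam3 with TGFβ (3008 and 2670 with TMM), 1255 and 1097 for the interaction (1516 and 836), and 1299 and 1495 for Pam3 without TGFβ (1419 and 1278).

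Some values without a call changed sign. The Pam3 response of Socs2 without TGFβ was -0.0014 with RLE size factors, -0.0154 with upper-quartile scaling, -0.00155 without a filter and -0.00187 with DESeq2, and -0.0512 to 0.0417 over the fits without 1 library. That of Socs6 with TGFβ was -0.0507 with upper-quartile scaling and ran from -0.0317 to 0.0234. The interaction of Stat5a was 0.00935 without a filter, 0.000948 with at least 10 counts in every library and 0.0661 without the 3 libraries, and ran from -0.0847 to 0.0685. Socs7 had an interaction of -0.00103 with upper-quartile scaling and ran from -0.0143 to 0.0836, and Elob ran from -0.0396 to 0.359. The interaction of Il12b, which rests on a few counts in resting cells, was 2.11, ran from -2.13 to 3.95 without 1 library and was 4.54 without the 3 libraries. The lowest values of Elob and Il12b were those without untreated replicate 2.

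With a replicate block, the counts of called genes were 4 and 4 for Pam3 without and with TGFβ, 9 and 7 for TGFβ without and with Pam3, and 3 for the interaction. The share of all tested genes called with the block is not given here, so these counts stand without a background. The labels do not say what a replicate number shares. Stat4 did not pass the count filter and was not tested.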

Other observations

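Of 5 genes listed as partners of the SOCS box, TGFβ without Pam3 changed 1 (Ube2f, log2 fold change -0.42), where 51.0% of all tested genes were called. With Pam3 present the TGFβ values of the 5 genes ran from -0.07 to 0.16. Ube2f had an interaction of 0.48 (adjusted p 0.00114), Elob of 0.17 and Rnf7 of 0.10, the last 2 without a call.

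Of 14 other negative regulators, TGFβ without Pam3 raised 4 and lowered 7 (median -0.14, against -0.01 over all tested genes, of which 22.9% rose and 28.1% fell). Ptpn1, a phosphatase of JAK2 and TYK2, fell from 708 to 437 CPM (-0.70), and Ptprc, which encodes CD45, from 737 to 510 CPM (-0.53). Usp18, which restrains the interferon receptor, held 1.35, 0.824, 19.6 and 65.2 CPM as group means in untreated, TGFβ, Pam3 and Pam3+TGFβ cells. Its interaction was 2.43 (adjusted p 6.36e-05), the largest of the list, followed by Dusp2 (0.62, adjusted p 0.281) and the ubiquitin ligase Cblb (0.53, adjusted p 0.00134).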
